A study of Mus musculus with 12 samples.

Results

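The arrays described here compare brown adipose tissue of adipocyte-specific Sel1L knockout mice with that of wildtype mice, both kept at 4 °C. They are 6 of the 12 arrays of the series, 3 per genotype, chosen by genotype and temperature in the array titles, and each array stands for 1 mouse. The mice called wildtype carried floxed Sel1L alleles (Sel1L f/f, C57BL/6J) without Cre recombinase. The knockouts carried the same floxed alleles and an Adiponectin-Cre transgene on that background, and were littermates of such controls. All had been fasted for 5 h at 4 °C before the tissue was frozen, and the other 6 arrays repeat both genotypes at room temperature. Ages are not in the labels used here. Adiponectin-Cre acts in adipocytes, whereas the tissue also holds vessels, immune cells, fibroblasts and nerve, in which Sel1L is left in place. The design text of the series mentions brown adipocytes that were isolated, while the array labels name the tissue, so markers of other cell types were read as well. Where a gene of 1 cell type lies lower in such tissue, fewer cells of that type and less RNA per cell cannot be told apart. The titles number the mice within each group and say no more about how they were chosen. A p-value here therefore speaks of the scatter among arrays, which the fit of single genes pools over all 12.

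Sel1L holds the ubiquitin ligase Hrd1 (gene Syvn1) together with its partners in the membrane of the endoplasmic reticulum (ER). This complex draws misfolded proteins out of the ER for degradation by the proteasome, a route called ER-associated degradation or ERAD. When unfolded protein builds up, the sensors IRE1, PERK and ATF6 start the unfolded protein response, which raises ER chaperones and ERAD genes and, through PERK and ATF4, amino acid and redox genes. Brown adipocytes burn fatty acids and glucose to make heat through the mitochondrial uncoupling protein UCP1. Cold drives them through noradrenaline, cAMP and the coactivator PGC-1α (gene Ppargc1a). The comparison addresses gene expression in the tissue of cold-exposed mice labelled as lacking Sel1L in adipocytes.

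Sel1l itself, the targeted gene, read 6.99, 6.69 and 7.04 in the wildtype arrays at 4 °C and 6.90, 6.73 and 6.54 in those labelled knockout. All values here are deposited log2 expression values, and a difference is labelled knockout minus wildtype on that scale. The Sel1l readings of the groups overlapped, and the difference of -0.19 (SE 0.14, adjusted p = 0.605) was not called. At room temperature Sel1l fell by 1.12 (adjusted p = 0.00114). A called beside an uncalled difference does not by itself show that the temperatures differ. The overlapping reading at 4 °C did not check the genotype label there, and the 3 arrays are called knockout-labelled throughout. A whole-transcript probe set can read RNA outside the deleted part, and probe positions were not used here. Brown adipocyte markers averaged 8.88, 8.87 and 9.0 in the wildtype arrays and 8.81, 8.71 and 8.82 in the knockout-labelled arrays, a difference of -0.14 (exact two-sided permutation p = 0.1, the smallest that 3 against 3 arrays allow). Of these 15 markers Plin5 (-0.86) and Pparg (-0.78) fell, both calls lost without each of 3 arrays (adjusted p up to 0.0939 and 0.0689), and Ucp1, Cidea and Adipoq were not called. Skeletal muscle transcripts varied between arrays, from 4.17 to 7.14 in wildtype and from 2.39 to 5.77 in the knockout-labelled arrays on the average of 24 markers. Of those, 23 lay lower and 0 were called, and the averages differed by -0.97 (exact p = 0.6). T and B cell markers averaged 2.24, 2.21 and 2.46 in wildtype and 2.18, 2.07 and 2.11 in the knockout-labelled arrays, near background, a difference of -0.19 (exact p = 0.1). Macrophage, lymphocyte, neutrophil and mast cell, endothelial, fibroblast and nerve markers also had 0 members called. The 14 endothelial markers all lay lower, with a median of -0.16. Xist was near background in all 6 arrays, from 1.08 to 1.39, and Uty, on the Y chromosome, fell by 0.58, a call lost without each of 4 arrays (adjusted p up to 0.09). Medians of the 6 arrays were 2.03 to 2.09, so readings near 2 to 3 are taken as close to background. Differences that start there may be understated, which was not tested. Arrays of 1 group at 4 °C correlated at 0.9785 to 0.9832 on average across probe sets.

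Of 22180 genes, represented by 1 probe set each, 807 (3.64%) rose and 503 (2.27%) fell in the knockout-labelled arrays, 5.91% in all, at an adjusted p under 0.05 in limma (Benjamini-Hochberg over 23521 probe sets). Rises were larger than falls. At least 2-fold rises numbered 331 and falls of that size 96. Past 4-fold there were 68 rises and 5 falls, and past 8-fold 19 rises and 0 falls. The median difference over all genes was -0.013. Of the probe sets, 1365 (5.8%) were called, 850 higher (3.61%) and 515 lower (2.19%), and 661 of them, 500 higher and 161 lower, were called in each of the 6 fits that left out 1 array. The lower calls depended more on single arrays than the higher calls did. They numbered 312, 230 and 255 without knockout-labelled replicates 1, 2 and 3, and 232 without wildtype replicate 1. All calls then numbered 842 without knockout-labelled replicate 2, 857 without replicate 3 and 846 without wildtype replicate 1.

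Members of the ERAD machinery rose. Of 25 measured genes 12 rose and 0 fell, with a median of 0.41. Derl3, a derlin that helps move substrates out of the ER, read 3.04, 3.47 and 3.11 in wildtype and 9.09, 9.20 and 9.24 in the knockout-labelled arrays, the largest rise of all genes tested (5.97, SE 0.15, 62.6-fold, adjusted p = 5.27e-10). Syvn1, the ligase that Sel1L holds, read 5.96, 5.84 and 6.04 against 8.39, 9.17 and 8.79, a rise of 2.84 (SE 0.23, adjusted p = 5.98e-06). For both genes every knockout-labelled array lay far above every wildtype array. Selenos, a membrane partner of the complex, rose by 2.27 (SE 0.12) and Edem1, a mannosidase-like lectin, by 2.08 (SE 0.13). Herpud1, which recruits the ligase, read 8.33, 8.63 and 8.93 against 10.30, 10.40 and 10.28 (1.69, SE 0.15, adjusted p = 1.53e-05). Derl1 rose by 1.28 and the lectin Os9 by 1.05, from 6.52, 6.45 and 6.62 to 7.62, 7.63 and 7.50. The Derl1, Os9 and Herpud1 groups did not overlap either. The 13 not called included genes that act in the cytosol: Vcp, the ATPase that pulls substrates out, Ufd1, Nploc4 and Ngly1, which strips their glycans. They also included genes of the ER itself, such as Edem3 (0.42), Fam8a1 (0.27), Erlec1 (0.18) and Man1b1 (0.12). Edem2 rose by 0.85 and Rnf5 by 0.41. With knockout-labelled replicate 3 left out their adjusted p-values were 0.0943 and 0.0759, the highest of 4 leave-one-out fits that lost the Edem2 call and of 6 that lost the Rnf5 call.

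**Figure D1:**
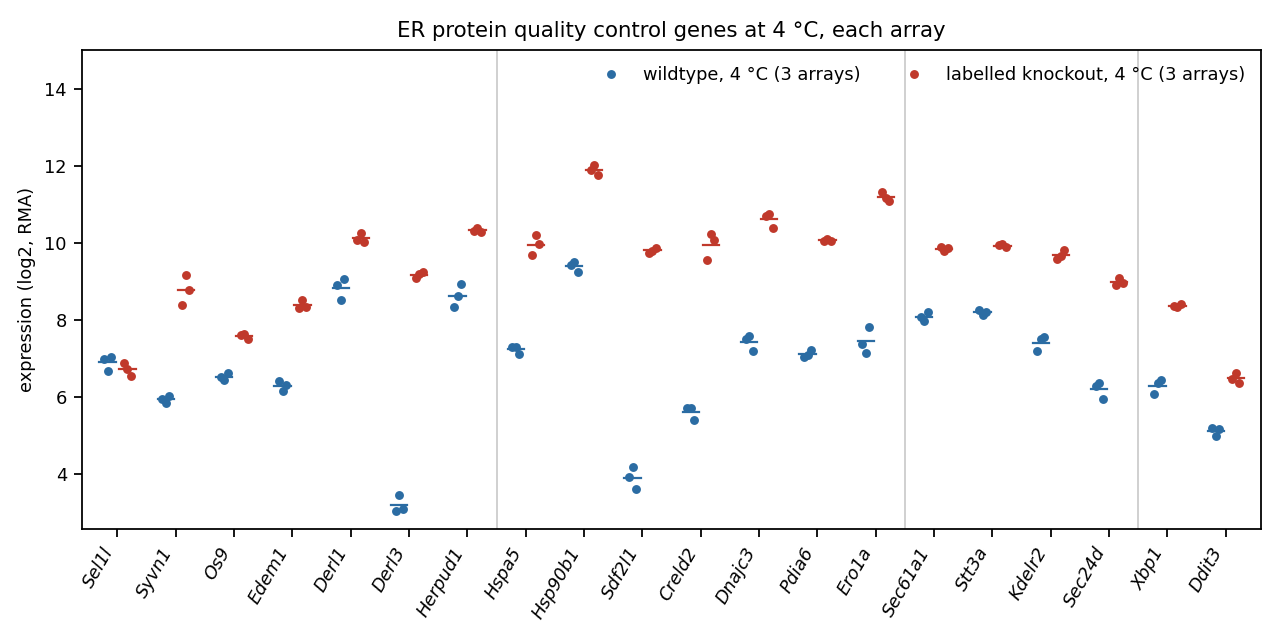
Log2 expression (vertical axis) of 20 ER protein quality control genes (horizontal axis) in each of the 3 wildtype and 3 knockout-labelled arrays at 4 °C; points are arrays, short lines are group means, and grey lines part ERAD, chaperone, export and regulator genes. Sel1l is the gene whose points overlap between the groups, while Derl3 starts near 3 and ends near 9.

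ER chaperones and folding enzymes rose in 26 of 30 measured genes, with 0 falls and a median of 1.98. Sdf2l1, which works with the chaperone BiP and its J-domain partners, read 3.92, 4.18 and 3.63 in wildtype and 9.75, 9.79 and 9.88 in the knockout-labelled arrays (5.90, SE 0.20, 59.6-fold, adjusted p = 7.85e-09). Hspa5, the gene of BiP, read 7.31, 7.31 and 7.13 against 9.68, 10.21 and 9.98 (2.71, SE 0.14, adjusted p = 1.9e-07). These rises exceeded the spread between arrays many times over. The J-domain partners differed in size: Dnajc3 rose by 3.17 (SE 0.20) and Dnajb11 by 3.11 (SE 0.15), whereas Dnajb9 rose by 0.82 from wildtype readings of 9.01, 9.05 and 9.43. The call of Dnajb9 was lost without knockout-labelled replicate 2 (adjusted p = 0.0771) and without wildtype replicates 1 (0.0732) or 2 (0.0603). Hyou1, which recharges BiP with ATP, rose by 3.06 and Hsp90b1, the ER member of the HSP90 family, by 2.50. Manf, a small ER protein that can be secreted, rose from 2.75, 2.53 and 2.83 to 5.48, 5.69 and 5.57.

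Of the genes that form disulfides, the oxidases of the ERO1 family and several isomerases rose. Ero1a, which drives disulfide formation, read 7.38, 7.15 and 7.82 in wildtype and 11.32, 11.16 and 11.08 in the knockout-labelled arrays (3.74, SE 0.27, 13.3-fold, adjusted p = 2.53e-06). Its relative Ero1b rose by 3.11 (SE 0.21) from readings of 3.39 to 3.95. The isomerases that pass oxidising power to clients followed, with Pdia6 up by 2.95, Txndc5 by 2.41, Pdia3 by 2.39 and P4hb by 2.17. Creld2, an ER protein with isomerase activity, read 5.73, 5.72 and 5.41 against 9.55, 10.23 and 10.07 (4.33, SE 0.24, 20.1-fold). Fkbp11, a prolyl isomerase of secretory cells, read 2.53, 1.86 and 2.42 against 6.26, 6.08 and 6.07 (3.87, SE 0.22), so its wildtype level was at background. For each of these genes the groups were separate. The lectin chaperones that hold glycoproteins rose less, Calr by 1.79 and Canx by 1.13. The 4 members not called were Cdnf, Tmx1, Qsox1 and Prdx4, with differences of -0.07 to 0.25.

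Genes of this kind carry ER stress elements in their promoters, and short stretches around the matches are shown here because such matches were more frequent among the genes that rose most than among all genes. The windows, from RefSeq (build GRCm38.p6), run from 250 bases before to 50 bases after an annotated start, 300 bases in all, and were found for 16990 of the genes. The ERSE searched, on both strands, was CCAAT and CCACG with 9 bases of any kind between them. The whole match is in capitals, the sequence is written 5′ to 3′ on the strand of the gene, and a match to the other strand reads as CGTGG first and ATTGG last.
Hspa5, chr2:34772010-34772058, plus strand: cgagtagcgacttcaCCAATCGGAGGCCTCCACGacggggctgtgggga
Dnajc3, chr14:118937812-118937860, plus strand: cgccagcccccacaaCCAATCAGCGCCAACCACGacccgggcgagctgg
Pdia6, chr12:17266476-17266524, plus strand: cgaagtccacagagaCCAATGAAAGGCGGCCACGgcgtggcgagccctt
Syvn1, chr19:6046517-6046565, plus strand: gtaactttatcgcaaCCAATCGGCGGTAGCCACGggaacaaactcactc
Derl3, chr10:75893227-75893275, plus strand: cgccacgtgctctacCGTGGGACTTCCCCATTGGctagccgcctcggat
Creld2, chr15:88819505-88819553, plus strand: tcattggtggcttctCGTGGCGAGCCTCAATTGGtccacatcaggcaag
Ero1b, chr13:12565667-12565715, plus strand: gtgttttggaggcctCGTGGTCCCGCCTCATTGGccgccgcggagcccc
Calr, chr8:84847060-84847108, minus strand: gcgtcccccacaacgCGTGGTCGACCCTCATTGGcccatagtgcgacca
Acacb, chr5:114165416-114165464, plus strand: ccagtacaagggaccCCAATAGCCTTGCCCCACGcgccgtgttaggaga

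The match lay 65 to 46 bases before the start in Hspa5, 44 to 25 in Syvn1, 156 to 137 in Derl3 and 201 to 182 in Ero1b. Hsp90b1 held 2 matches, and Canx, Alg12 and Hnrnpa3 1 each. An ERSE was found for 29 of the 16990 genes (0.171%), and 12 of these 29 rose (41.4%) against 3.73% of the genes without one. It was held by 8 of the 50 genes with a window that rose at least 4-fold (16%), by 1.86% of all 645 that rose and by 0.24% of the 417 that fell. The single gene that fell was Acacb, an acetyl-CoA carboxylase, whose difference was -1.18. Over all 32851 windows in the table, 0.119% held the motif. Alg12, a mannosyltransferase, and Creld2 lie head to head and share 1 match between them, read on opposite strands. Creld2 rose by 4.33 and Alg12 by 0.91, although the Alg12 call was lost without each of 4 arrays (adjusted p up to 0.107, without knockout-labelled replicate 3).

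The related ERSE-II, ATTGG and CCACG with 1 base between them, was found for 9 genes, of which 5 rose, among them Herpud1 (1.69) and Nucb1 (1.10), a calcium-binding relative of Nucb2. The UPRE searched, TGACGTGG, was found for 147 genes, of which 29 rose and 3 fell (19.7% higher against 3.66% without it). Stretches of Herpud1 for ERSE-II, and of Sec24d and Txndc5 for the UPRE, are written in the same way, since these genes had no ERSE match and rose all the same.
Herpud1, chr8:94386362-94386402, plus strand: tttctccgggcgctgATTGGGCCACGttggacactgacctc
Sec24d, chr3:123267455-123267492, plus strand: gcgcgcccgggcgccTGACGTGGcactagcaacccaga
Txndc5, chr13:38528030-38528067, minus strand: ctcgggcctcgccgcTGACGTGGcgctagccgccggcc

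For the elements of other stress and metabolic factors the shares lay closer to those of genes without them. The CARE of ATF4, TGATGNAA, was found for 666 genes, of which 3.45% rose against 3.81% without it. The antioxidant element, TGACNNNGC, was found for 2533 genes, of which 4.7% rose against 3.64%. The cAMP element, TGACGTCA, was found for 450 genes, with 16 higher and 15 lower. A repeat bound by PPAR receptors, AGGTCA written 2 times with 1 base between, was found for 11 genes, with 0 called. The UPRE and the antioxidant letters can overlap, as they do in the Sec24d stretch. All of these are matches of letters, not measured binding, and a gene without a match may hold one outside the window.

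**Figure D2:**
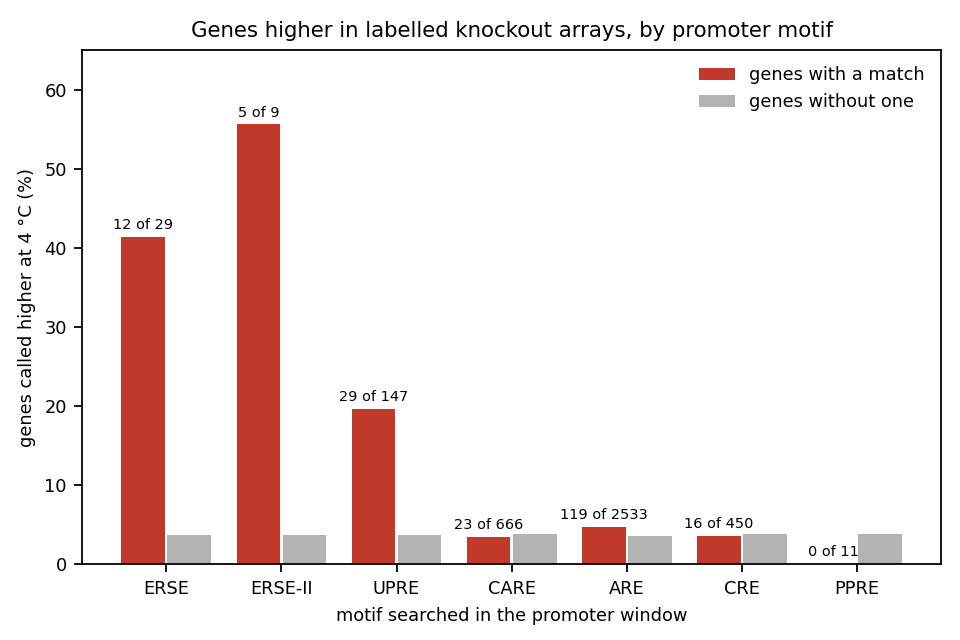
Percent of genes that rose at 4 °C (vertical axis) among genes with a match (red) and without one (grey) for each of 7 promoter motifs (horizontal axis); the text above each red bar gives the genes that rose of the genes with a match. ERSE (12 of 29), ERSE-II (5 of 9) and UPRE (29 of 147) stand above their grey bars.

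Genes that bring new proteins into the ER and glycosylate them rose in 34 of 37 measured cases, with 0 falls and a median of 1.32. For 36 of the 37 every knockout-labelled array lay above every wildtype array, as it did for 11% of all genes. Sec61a1, the pore of the translocon, read 8.07, 7.98 and 8.21 in wildtype and 9.89, 9.79 and 9.88 in the knockout-labelled arrays (1.77, SE 0.10, adjusted p = 5.12e-07). Sec61g, a further pore subunit, rose by 1.90, and Spcs3 of the signal peptidase by 1.92. Stt3a, the catalytic subunit that transfers glycans as chains enter the ER, read 8.27, 8.14 and 8.21 against 9.95, 9.96 and 9.89 (1.73, SE 0.11). Its counterpart Stt3b, which acts after entry, rose by 0.94. Dpagt1, which starts the glycan precursor, rose by 1.88 (SE 0.13). Gfpt1, the entry enzyme of the hexosamine pathway that supplies it, rose by 2.01 from 6.34, 5.89 and 6.23 to 8.36, 8.16 and 7.97. Signal recognition and its receptor were included, with Srprb up by 1.83 and Srpr by 1.75. The 3 members not called were Sec62 (0.14), Alg5 (0.43) and Tusc3 (0.69).

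Vesicle transport between ER and Golgi rose in 35 of 41 measured genes, with 0 falls and a median of 1.13. Sec24d, a cargo-binding subunit of the COPII coat, read 6.28, 6.37 and 5.96 in wildtype and 8.90, 9.10 and 8.96 in the knockout-labelled arrays (2.78, SE 0.13, 6.89-fold, adjusted p = 1.46e-07). Its paralogs did not move alike: Sec24a rose by 0.71, and Sec24b and Sec24c lay at 0.02 and -0.06 and were not called. The Sec24a call was lost without each of 4 arrays (adjusted p up to 0.0581). Sec23b rose by 2.07 and its paralog Sec23a by 1.19. Kdelr2, the receptor that returns escaped chaperones from the Golgi, read 7.19, 7.50 and 7.56 against 9.58, 9.66 and 9.81 (2.26, SE 0.15). Kdelr3 rose by 1.20 from readings of 2.44 to 2.93, and Kdelr1 (0.31, adjusted p = 0.224) was not called. Uso1, a tether of arriving vesicles, read 7.88, 7.90 and 7.88 against 9.79, 9.76 and 9.89. In the COPI coat Copa, Copb1, Copb2, Cope, Copg1, Copz1 and Arcn1 rose, from 0.67 for Copb1 to 1.55 for Copb2, and Copg2 (0.56, adjusted p = 0.35) was not called. Golgi structural genes did not pass, with Golgb1 at 0.14 and Golga2 at 0.31.

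Sensors and factors of the unfolded protein response were themselves higher, with 9 of 15 measured genes up, 0 down and a median of 1.03. Xbp1, whose RNA is the substrate of IRE1, read 6.09, 6.37 and 6.45 in wildtype and 8.37, 8.35 and 8.41 in the knockout-labelled arrays (2.07, SE 0.14, adjusted p = 1.42e-06). Probe sets of this kind do not tell spliced from unspliced Xbp1. The sensors rose less: Eif2ak3 (PERK) by 1.46, Ern1 (IRE1) by 1.25 and Atf6 by 1.03, the last from 8.51, 8.34 and 7.90 to 9.24, 9.51 and 9.08. Creb3l2, a membrane-bound factor cleaved in the Golgi like ATF6, read 5.01, 4.77 and 4.82 against 6.36, 6.64 and 6.71 (1.70, SE 0.12). Ddit3, the gene of CHOP, read 5.20, 5.00 and 5.18 against 6.47, 6.63 and 6.36 (1.36, SE 0.14), and Ppp1r15a, which reverses the PERK signal, rose by 1.35. The proteases Mbtps1 and Mbtps2 that cleave ATF6 lay at -0.13 and -0.20 and were not called. Trib3, a CHOP target, had readings that overlapped between the groups (0.95, adjusted p = 0.0771).

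Targets of the integrated stress response moved in part. Of 18 measured genes 6 rose and 1 fell, where 3.64% of all genes rose and 2.27% fell. The median of 0.03 was close to that of all genes. Atf4 itself read 8.55, 8.41 and 8.21 in wildtype and 8.36, 8.18 and 8.24 in the knockout-labelled arrays (-0.13, adjusted p = 0.822). In the 6 leave-one-out fits 2 or 3 rose. Of the 6 that rose with all arrays, the autophagy receptor gene Sqstm1 (0.68) and Herpud1 kept the call in each leave-one-out fit. Fgf21, a secreted metabolic hormone, read 6.67, 6.52 and 6.35 against 8.06, 8.27 and 7.86 (1.55, SE 0.35, adjusted p = 0.0197). Its call was lost without each of 5 arrays (adjusted p up to 0.0816, without knockout-labelled replicate 2). Asns and Nupr1 lost theirs without each of the 6 (up to 0.128 and 0.117), and Atf5 without each of 4 (up to 0.0969). Atf3 was lower in every knockout-labelled array, at 6.26, 5.63 and 5.33 against 7.64, 6.92 and 6.75 (-1.36, SE 0.28, adjusted p = 0.0126). That call was lost without knockout-labelled replicates 2 (0.0549) or 3 (0.0633) and without wildtype replicate 1 (0.0577), and the difference was -0.37 (0.892) with a wildtype array of conflicting temperature labels, described with the thermogenic genes, moved to the 4 °C group. Chac1, often taken as a reporter of ATF4, lay at -0.73 (adjusted p = 0.283).

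Of 13 measured serine and one-carbon enzymes 4 rose and 1 fell, with a median of 0.44. This and the next list counts stand beside the 3.64% of all genes that rose and the 2.27% that fell. In serine and proline synthesis Psat1 read 3.20, 3.71 and 3.06 in wildtype and 6.31, 6.12 and 5.91 in the knockout-labelled arrays (2.79, SE 0.19, adjusted p = 1.7e-06). Aldh18a1 of proline synthesis rose by 2.31 (SE 0.25) and the mitochondrial folate enzyme Aldh1l2 by 1.75. Mthfd2, its neighbour in that pathway, rose by 1.41, a call lost without wildtype replicate 1 (adjusted p = 0.055). The fall was that of Shmt1, the cytosolic serine hydroxymethyltransferase (-0.55, adjusted p = 0.0336), and was lost without each of the 6 arrays (up to 0.114). The first serine enzyme Phgdh (0.40) and the last, Psph (0.73), were not called. Among cytosolic aminoacyl-tRNA synthetases 3 of 19 rose, Wars by 1.43, Eprs by 0.80 and Nars by 0.68, the last lost without knockout-labelled replicate 2 (0.058). Of 16 mitochondrial synthetases 0 were called, with a median of -0.02. Of 26 plasma membrane amino acid transporters 4 rose and 4 fell. Slc7a5, a large neutral amino acid exchanger, read 4.85, 4.60 and 5.12 against 6.46, 6.64 and 7.01 (1.85, SE 0.19), and the cystine exchanger Slc7a11 rose by 1.33 from background (a dimmer probe set, at 0.17, was not called). Of these 8 calls 3 held in each leave-one-out fit, those of Slc7a5, Slc7a11 and Slc36a2. Slc36a2, a proton-coupled transporter, fell from 10.26, 10.16 and 9.98 to 9.36, 9.24 and 9.59 (-0.74, SE 0.13, adjusted p = 0.00484).

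**Figure D3:**
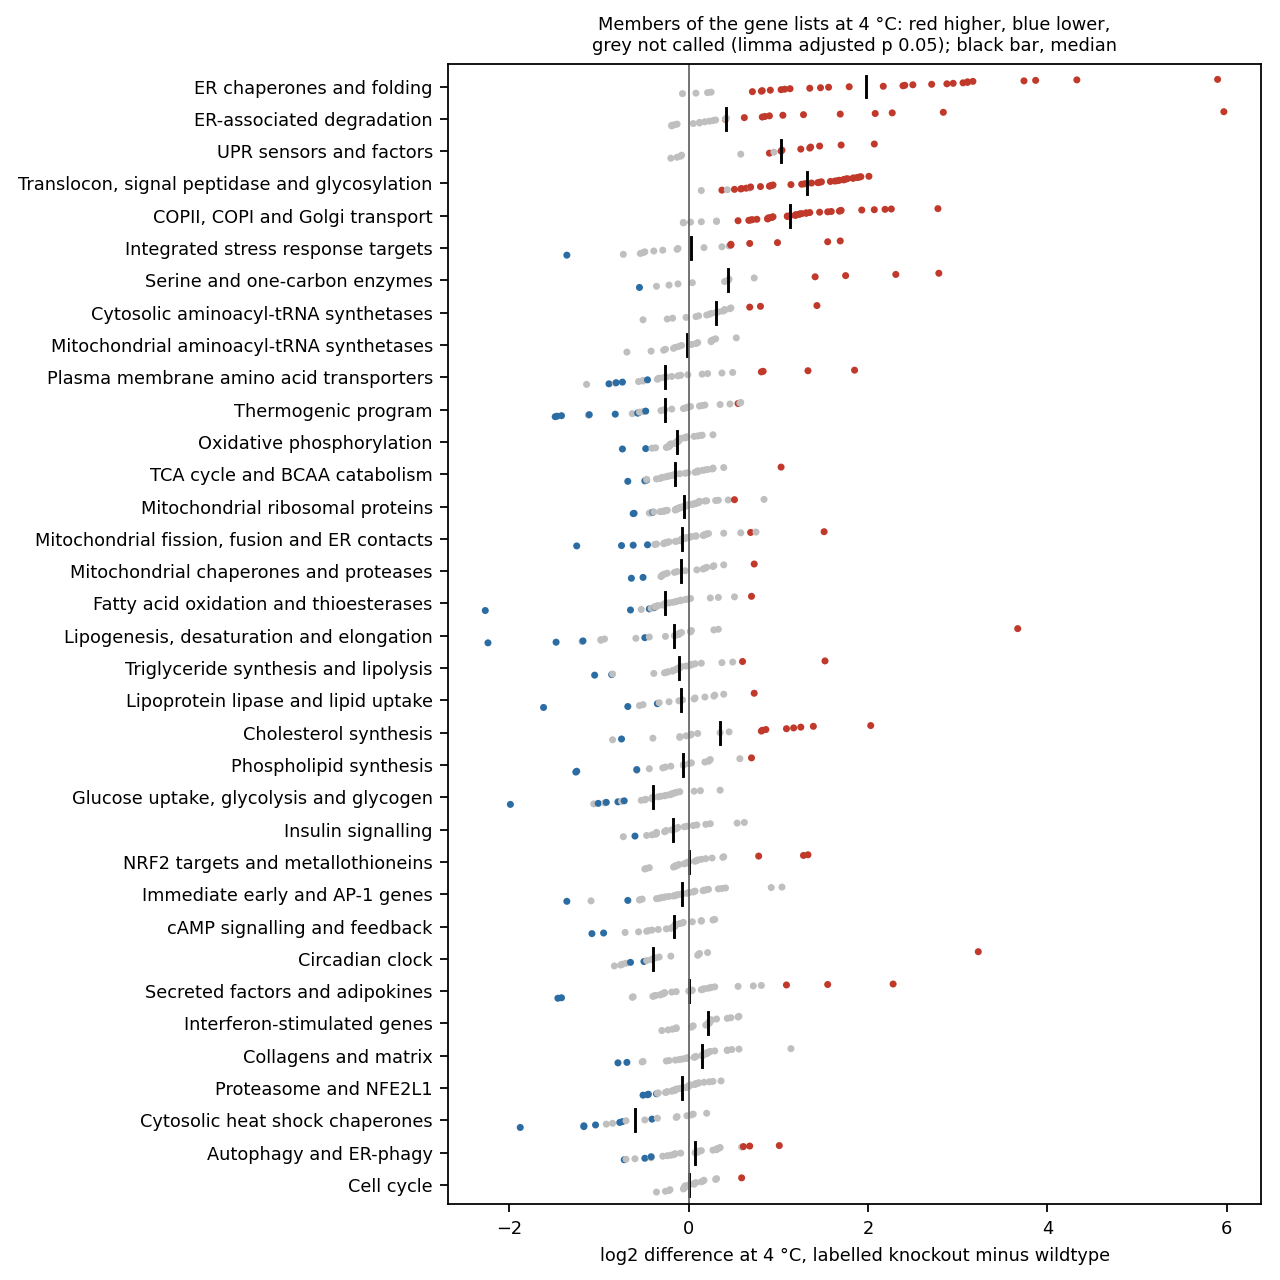
Log2 difference at 4 °C, knockout-labelled minus wildtype (horizontal axis), of every measured member of each gene list (vertical axis); red points rose, blue points fell, grey points were not called by limma, and black bars are list medians. The 5 uppermost lists, all of the ER and its export route, hold red points and no blue ones.

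Outside these lists the largest rises joined few common functions. Prr32 read 1.23, 1.64 and 1.68 in wildtype and 6.01, 5.98 and 5.77 in the knockout-labelled arrays (4.40, SE 0.35, 21.2-fold, adjusted p = 6.01e-06). Scd3, a stearoyl-CoA desaturase, read 3.17, 3.71 and 3.16 against 7.20, 6.55 and 7.32 (3.67, SE 0.26). Both started near background and were separate between groups. Scd1, the main desaturase of fat, read 11.75, 11.56 and 11.87 against 10.93, 11.35 and 11.60 and was not called (-0.44, adjusted p = 0.162), so the paralogs did not move together. Plscr2, a phospholipid scramblase, rose by 3.60 and its family member Plscr1 lay at -0.34, not called. Nucb2, a calcium-binding secretory protein that gives rise to nesfatin, rose by 3.34 (SE 0.19). Rbm15b, which guides RNA methylation, read 4.29, 3.95 and 3.66 against 7.28, 7.90 and 7.20 (3.49, SE 0.29). It lies within 5000 bases of Manf, which rose by 2.88, and overlaps Dcaf1, which lay at -0.10. Itih4, a plasma protein of the acute phase, read 3.17, 2.93 and 3.00 against 6.19, 5.95 and 6.57, a rise of 3.20. It had the widest error of these genes (SE 0.54), and that error pools the scatter of all 12 arrays, those at room temperature included.

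Of 29 measured genes of the thermogenic program 8 fell and 1 rose, where 2.27% of all genes fell and 3.64% rose. The median was -0.27, and for 14 the knockout-labelled arrays all lay below wildtype (10.8% of all genes). Ppargc1a, the coactivator of mitochondrial biogenesis, read 11.49, 11.31 and 10.94 in wildtype and 9.61, 9.99 and 9.88 in the knockout-labelled arrays (-1.42, SE 0.25, adjusted p = 0.00473). Ppara, the nuclear receptor of fatty acid oxidation, read 7.19, 6.68 and 6.81 against 5.48, 5.36 and 5.35 (-1.49, SE 0.17, adjusted p = 0.000165). In both genes the groups did not overlap. Ucp3 fell by 1.47, the thioesterase Acot11 by 1.11 and the estrogen-related receptor Esrrg by 0.82. These 5 falls held in each leave-one-out fit, while those of Ppargc1b, Letmd1 and Ebf3, and the rise of Pm20d1, did not (adjusted p up to 0.0663, 0.0559, 0.162 and 0.164). Ucp1 read 12.83, 12.69 and 12.71 against 12.68, 12.72 and 12.73 (-0.04, SE 0.11), at the upper end of the deposited values, which reach 13.02. Whether differences are compressed there was not tested. Cidea (-0.01) and Elovl3 (-0.19) were not called, and Dio2 had a bright probe set at 0.02, not called, and a dimmer one at 0.86 that was called. Pparg, the master regulator of adipocytes, fell by 0.78, a call lost without knockout-labelled replicate 3 (adjusted p = 0.0689) and wildtype replicates 1 (0.0662) or 2 (0.0608). Perm1, a PGC-1 target first known from muscle, fell by 1.58. One wildtype array at room temperature carries 4 °C in its source name. With it among the 4 °C wildtype arrays the calls of Ppargc1a and Perm1 were lost (adjusted p = 0.709 and 0.0757) and that of Ppara was not.

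**Figure D4:**
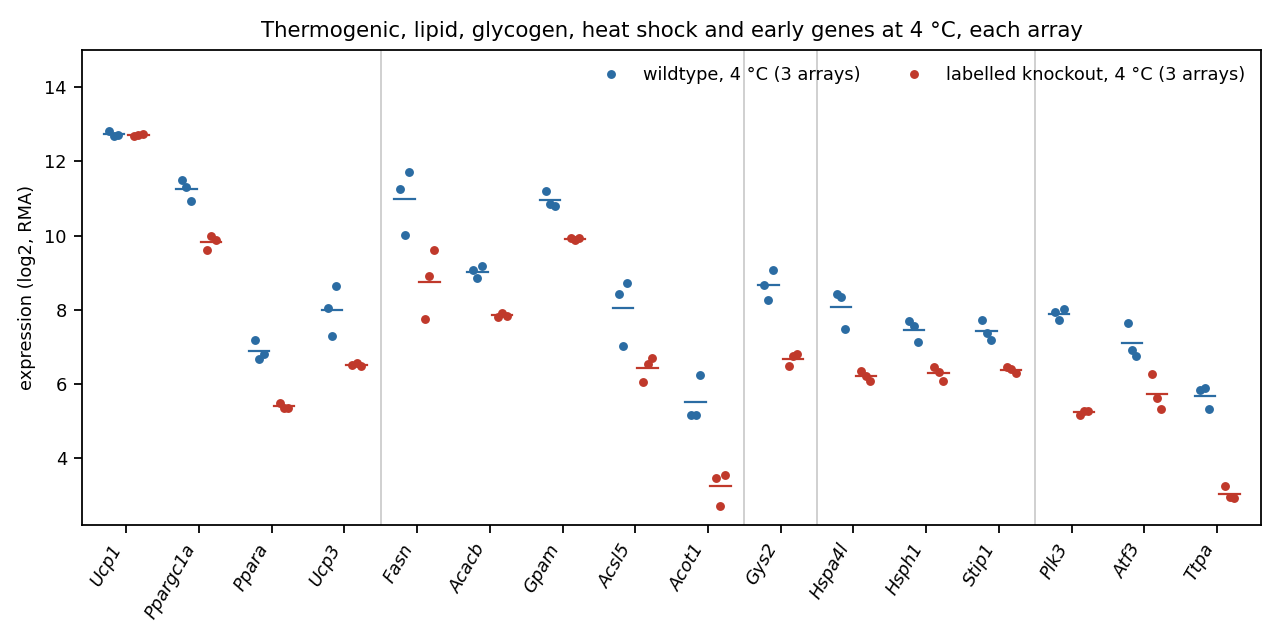
Log2 expression (vertical axis) of 16 genes (horizontal axis) in each of the 3 wildtype and 3 knockout-labelled arrays at 4 °C; points are arrays, short lines are group means, and grey lines part thermogenic, lipid, glycogen, heat shock and other genes. All but Ucp1 lie lower in every knockout-labelled array.

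Some fat synthesis genes, among them Fasn, Acaca and Acly, varied widely among wildtype mice in the cold. Of 23 measured genes 4 fell and 1, Scd3, rose, where 2.27% of all genes fell and 3.64% rose. The list's median was -0.16, and 1 of the falls, that of Acacb, held in each leave-one-out fit. Fasn, fatty acid synthase, read 11.25, 10.01 and 11.72 in wildtype and 7.75, 8.90 and 9.62 in the knockout-labelled arrays (-2.24, SE 0.52, adjusted p = 0.0245). The groups did not overlap, but the closest arrays were near each other, and the call was lost without each of 4 arrays (adjusted p up to 0.0995, without knockout-labelled replicate 1). Acaca, the cytosolic acetyl-CoA carboxylase, had readings that overlapped (-1.19, adjusted p = 0.135), as did Acly (-0.14). Acacb, the carboxylase at mitochondria, varied little and fell from 9.06, 8.86 and 9.17 to 7.81, 7.90 and 7.84 (-1.18, SE 0.12, adjusted p = 3.73e-05). Gpam, which starts glycerolipid synthesis, fell from 11.21, 10.85 and 10.81 to 9.93, 9.87 and 9.93 (-1.05, SE 0.14). Lpin3, a phosphatidate phosphatase, rose by 1.52, and the lipases Pnpla2 (0.01) and Lipe (-0.10) were not called. Acsl5, an acyl-CoA synthetase, fell by 1.62, a call lost without each of 5 arrays (adjusted p up to 0.105, without wildtype replicate 1), while Acsl4 rose by 0.73. The cytosolic thioesterase Acot1 read 5.15, 5.15 and 6.23 against 3.47, 2.70 and 3.54 (-2.27, SE 0.31), and its mitochondrial paralog Acot2 went the other way, from 11.00, 11.31 and 11.30 to 11.99, 11.92 and 11.80 (0.70, SE 0.12).

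Sterol synthesis genes gave more calls than phospholipid genes, and a difference between the lists was not tested. Both counts stand beside the 3.64% of all genes that rose and the 2.27% that fell. Of 19 genes of cholesterol synthesis 8 rose and 1 fell, with a median of 0.35, and 5 rose without knockout-labelled replicate 2. Lss, which closes the sterol rings, read 5.49, 5.75 and 5.93 in wildtype and 7.83, 7.87 and 7.56 in the knockout-labelled arrays (2.03, SE 0.16, adjusted p = 4.61e-06). Ebp rose by 1.39, Fdps by 1.25 and Mvd by 1.17, while Pmvk, a kinase early in the route, fell by 0.75. Srebf2, the gene of their main regulator, lay at 0.03 and was not called. In phospholipid synthesis 3 of 18 fell and 1 rose, and Pcyt1a (-0.58) lost its call without each of 5 arrays (adjusted p up to 0.109). Pcyt2, rate-limiting for phosphatidylethanolamine, fell from 7.00, 6.64 and 7.35 to 5.53, 5.68 and 6.00 (-1.26, SE 0.22). Ptdss2, a phosphatidylserine synthase of the membrane between ER and mitochondria, fell from 7.34, 7.23 and 7.45 to 6.06, 5.88 and 6.33 (-1.25, SE 0.14), and its paralog Ptdss1 lay at 0.22, not called. Pemt, which methylates phosphatidylethanolamine to phosphatidylcholine, rose by 0.70 and lost its call without knockout-labelled replicate 3 (adjusted p = 0.0713) or wildtype replicate 2 (0.0619).

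Genes of glucose uptake, glycolysis and glycogen had 5 of 29 measured members down and 0 up, where 2.27% of all genes fell and 3.64% rose. Their median was -0.40. Without each of the 3 knockout-labelled arrays 3 fell, and without wildtype replicate 1 only 2, Gys2 and Pfkfb3. Gys2, a glycogen synthase, read 8.67, 8.27 and 9.06 in wildtype and 6.49, 6.75 and 6.80 in the knockout-labelled arrays (-1.99, SE 0.21, 3.97-fold lower, adjusted p = 7.47e-05). Pfkfb3, which makes the activator of phosphofructokinase, fell by 0.92, and Pfkl, its liver-type target, by 0.79, the latter lost without wildtype replicate 1 (adjusted p = 0.0664). With the muscle marker level as a covariate Gys2, Pfkfb3 and Pfkl kept their calls, and Ugp2 and Hk2 lost theirs (0.0728 and 0.0724). The list's median was -0.28 with that covariate, and what else muscle RNA contributes was not tested. The glucose transporters Slc2a4 (-0.48) and Slc2a1 (0.35) had readings that overlapped. In insulin signalling 1 of 24 fell, beside 2.27% of all genes. It was Pik3cb (-0.60, lost without each of 4 arrays, adjusted p up to 0.101), and Insr (-0.19) and Irs2 (-0.73) were not called. The adaptor Sh2b2, which binds the insulin receptor, fell by 1.08 (SE 0.19, adjusted p = 0.00384).

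Mitochondrial lists shifted by little, and their counts stand beside the 2.27% of all genes that fell and the 3.64% that rose. Oxidative phosphorylation had 2 of 37 down and 0 up, with a median of -0.13. Ndufa1 of complex I read 9.32, 9.38 and 9.44 in wildtype and 8.68, 8.65 and 8.58 in the knockout-labelled arrays (-0.74, SE 0.11, adjusted p = 0.000813), and Ndufb3 fell by 0.48 with a call lost without each of 4 arrays (up to 0.0896, without knockout-labelled replicate 3). Mitochondrial ribosomal proteins had 3 of 52 down and 1 up, and the fall of Mrpl45 (-0.61) held in each leave-one-out fit. Of 39 genes of fission, fusion and ER contacts 4 fell and 2 rose, of which Mtfp1, Ptdss2, Rrbp1 and the mitophagy receptor Fundc1 (0.69) held in each. Mfn2, Mfn1, Opa1 and Dnm1l, the core fusion and fission enzymes, lay at -0.38 to -0.13 and were not called, and Mtfp1, which promotes fission, fell by 0.75. On the ER side Rrbp1, a ribosome-binding protein of sheets that face mitochondria, rose from 5.91, 5.77 and 5.56 to 7.19, 7.30 and 7.29 (1.51, SE 0.13). The matrix protease Lonp1 rose by 0.73 and the chaperone Hspd1 fell by 0.51, the latter a call lost without each of 5 arrays (adjusted p up to 0.118). Of fatty acid oxidation and thioesterase genes 4 of 27 fell and 1 rose, among the former Crat, a carnitine acyltransferase, by 0.65 (its dimmer probe set, at -0.20, was not called). Without each of 4 arrays Acot1 and Crat were the 2 that fell. Bcat2, which starts breakdown of branched amino acids, rose by 1.03.

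Cytosolic heat shock chaperones were lower in part. Of 18 measured genes 7 fell and 0 rose, with a median of -0.59, and 4 fell without wildtype replicate 1. This count and that of the proteasome below stand beside the 2.27% of all genes that fell and the 3.64% that rose. Hspa4l, a nucleotide exchange factor for HSP70, read 8.42, 8.33 and 7.49 in wildtype and 6.34, 6.20 and 6.07 in the knockout-labelled arrays (-1.88, SE 0.27, adjusted p = 0.00101). Hsph1, of the same family, read 7.69, 7.57 and 7.12 against 6.46, 6.33 and 6.07 (-1.17, SE 0.19). Stip1, which joins HSP70 to HSP90, read 7.71, 7.36 and 7.18 against 6.45, 6.39 and 6.30 (-1.04, SE 0.13, adjusted p = 0.000329). Every knockout-labelled array lay below every wildtype array for these genes. Chordc1, an HSP90 partner, fell by 1.17. Hspa1a, the inducible HSP70, had 1 high wildtype array (6.93, against 4.92 and 4.90) and was not called. With the array of the conflicting label among the 4 °C wildtype arrays, 1 of the 18 fell, Stip1, and Hspa4l, Hsph1 and Chordc1 had adjusted p-values of 0.0864, 0.67 and 0.154. Proteasome genes fell in 4 of 33 and rose in 0, with a median of -0.08. Psma6, a subunit of the core particle, fell by 0.51 (adjusted p = 0.00979) and was the 1 that held in each leave-one-out fit, and 0 of the 33 fell with that array moved.

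Counts among early and signalling genes stand beside the 2.27% of all genes that fell and the 3.64% that rose. Plk3, a stress-responsive polo-like kinase, had the largest fall of all genes tested, from 7.94, 7.71 and 8.02 to 5.16, 5.28 and 5.27 (-2.65, SE 0.20, adjusted p = 3.93e-06). It overlaps Tctex1d4, which lay at -0.17 and was not called, and its call was lost with the array of the conflicting label among the 4 °C wildtype arrays (0.378). Immediate early genes fell in 2 of 33, Atf3 and Nr4a3 (-0.68), the latter lost without each of 4 arrays (adjusted p up to 0.121) and at 0.10 with the conflicting array moved. In that setting 0 of the 33 fell and 2 rose. Fos read 6.76, 4.59 and 5.45 against 5.62, 5.97 and 5.37 and Egr1 was as variable, so neither differed beyond the spread. In cAMP signalling 2 of 25 fell. Akap1, which anchors protein kinase A at mitochondria, fell from 8.60, 8.43 and 8.21 to 7.27, 7.37 and 7.35 (-1.08, SE 0.14, adjusted p = 0.000344), and the adenylyl cyclase Adcy6 by 0.95. Ttpa, which carries vitamin E, read 5.83, 5.88 and 5.32 against 3.25, 2.95 and 2.91 (-2.64, SE 0.27, adjusted p = 0.154 with the conflicting array moved). The fatty acid receptor Ffar4 fell by 1.70 beside its chromosomal neighbour Rbp4 (-1.46), although the Ffar4 call was lost without knockout-labelled replicates 1 (0.0621) or 2 (0.076) and without wildtype replicate 1 (0.0896). Mavs, the mitochondrial adaptor of antiviral signalling, fell from 9.0, 8.52 and 9.13 to 7.02, 6.82 and 7.23 (-1.86, SE 0.15, adjusted p = 8.31e-06).

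Secreted, clock and redox genes had single members with large differences. List counts here stand beside the 2.27% of all genes that fell and the 3.64% that rose. Lcn2, a lipocalin, read 4.64, 4.58 and 4.92 in wildtype and 7.11, 6.98 and 6.89 in the knockout-labelled arrays (2.28, SE 0.36, adjusted p = 0.00203). Rbp4, the retinol carrier, fell from 6.53, 6.85 and 7.62 to 5.43, 5.29 and 5.91, and Retn, resistin, by 1.42, a call lost without knockout-labelled replicate 2 (0.0532). Npas2, a paralog of Clock, rose from 2.55, 2.28 and 2.45, which is background, to 5.13, 5.77 and 6.08 (3.23, SE 0.19, adjusted p = 6.2e-07). Its partner Arntl lay at 0.12 with overlapping groups, and Clock fell by 0.50, a call lost without each of 5 arrays (adjusted p up to 0.135). Gclc, which limits glutathione synthesis, rose from 6.48, 6.49 and 6.56 to 7.93, 7.69 and 7.76 (1.28, SE 0.13), and Srxn1 by 0.78. Other NRF2 targets, Hmox1 (0.38) and Nqo1 (0.00), were not called. Interferon-stimulated genes had 0 of 22 called and collagens and matrix genes 0 up and 2 down of 32, Lamb1 and P4ha1, both lost without several arrays (adjusted p up to 0.0988 and 0.185). Autophagy genes rose in 3 and fell in 3 of 29. Wipi1 rose by 1.01 and Sqstm1 by 0.68 in each leave-one-out fit as well, and none of the 3 falls, of Ulk1, Ccpg1 and Calcoco1, held in all 6.

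The genotype difference at 4 °C was then set against that at room temperature, where the 6 arrays are others and 388 genes (1.75%) were called, 1.32% higher and 0.428% lower (404 probe sets, 1.72%). Of the 807 genes that rose at 4 °C, 240 (29.7%) also rose at room temperature, which is 81.9% of the 293 that rose there. Falls were shared less, with 26 of 503 (5.17%), or 27.4% of the 95 at room temperature, and 2 genes were called in opposite directions. Of the 240 shared rises 189 were larger at 4 °C. A difference between temperatures was tested by the interaction of genotype and temperature, which was called for 72 genes (0.325%, and 0.306% of probe sets), 54 higher (0.243%) and 18 lower (0.0812%). That count was 45, 21 and 36 without knockout-labelled replicates 1, 2 and 3 at 4 °C, and 33, 36 and 123 without wildtype replicates 1, 2 and 3. It was 17 with the array of the conflicting label among the 4 °C wildtype arrays.

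Among ER genes the interaction was called for Fkbp11 (3.87 at 4 °C and 1.61 at room temperature, interaction 2.25, SE 0.31, adjusted p = 0.0111) and for Creb3l2 (1.70 and 0.17, interaction 1.53, SE 0.16, adjusted p = 0.00169). Both kept the call without each single array, and that of Fkbp11 also with the conflicting array moved (0.0336). Os9 rose at 4 °C and lay at 0.13 at room temperature (interaction 0.92, adjusted p = 0.0294), and Herpud1 at 1.69 and 0.19 (interaction 1.51, adjusted p = 0.0116). The Os9 call was lost without each of 5 arrays (up to 0.099) and the Herpud1 call without 1 (0.0534). With the conflicting array moved both were lost (0.18 and 0.0905). For Derl3 (1.00, adjusted p = 0.0878), Sdf2l1 (0.85, 0.301) and Hspa5 (0.63, 0.251) the interaction was not called.

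Among the 29 named genes with an interaction call, 6 outside the ER that rose at 4 °C kept the interaction call without each single array and with the conflicting array moved, namely Prdm15, Npas2, Krt23, Il23a, Stambpl1 and Plscr2. Prdm15, a zinc finger factor, read 2.36, 2.58 and 2.12 in wildtype and 5.99, 5.56 and 5.64 in the knockout-labelled arrays, a difference of 3.38 against 0.27 at room temperature (interaction 3.11, SE 0.23, adjusted p = 0.000133). Il23a, a cytokine subunit, read 1.53, 1.78 and 1.81 against 4.03, 4.05 and 4.26 (interaction 2.29, SE 0.17, adjusted p = 0.000133). Krt23, a keratin, read 1.66, 1.26 and 1.73 against 4.37, 4.01 and 4.04 (interaction 2.34, SE 0.22). These wildtype readings were at background, and the 3 knockout-labelled arrays were close together. Stambpl1, a deubiquitinase, rose by 3.04 at 4 °C and by 0.77 at room temperature (interaction 2.27, SE 0.24, adjusted p = 0.00169). Among falls, Mavs lay at -1.86 at 4 °C and -0.10 at room temperature (interaction -1.76, SE 0.22, adjusted p = 0.00625), and kept the call without each single array and with the conflicting array moved (0.0279). Ppara (-1.49 and 0.15, interaction -1.64, adjusted p = 0.0188) lost it without each of 2 arrays (up to 0.0793). Plk3 (-2.65 and 0.40, interaction -3.06, SE 0.28, adjusted p = 0.000515) lost it with the conflicting array moved (0.781). The interaction of Ppargc1a (-1.56, adjusted p = 0.106) was not called.

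**Figure D5:**
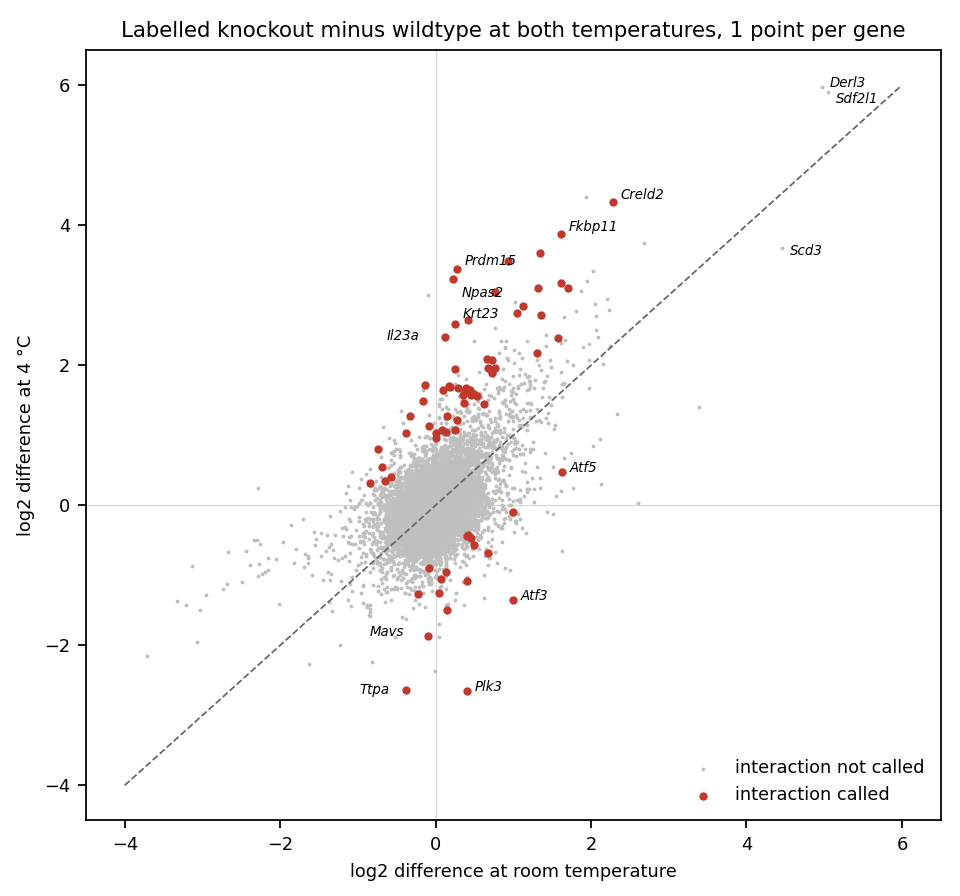
Log2 difference, knockout-labelled minus wildtype, at room temperature (horizontal axis) and at 4 °C (vertical axis), 1 point per gene; red points are the 72 genes whose interaction was called, the dashed line marks equal differences, and the 2 axes rest on different arrays. Derl3 and Sdf2l1 lie far out on both axes, and Prdm15, Npas2, Krt23 and Il23a lie high on the 4 °C axis near 0 at room temperature.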

How the data were processed

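Per the labels' protocols, total RNA of frozen brown adipose tissue was extracted with Trizol, cleaned on RNeasy columns, and 100 ng per mouse was labelled with an Affymetrix whole-transcript assay. The deposited table holds log2 expression values of 41345 probe sets, made by the authors with RMA, per the submitters' processing notes; RMA corrects background, quantile-normalizes the arrays and summarises probes. Its version, scanner intensities, background and saturation were not used here. Gene names came from the platform annotation: 23521 probe sets had 1 symbol, 1814 several and 16010 none. For a gene with several, the probe set with the highest mean over the 12 arrays stood for it.

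Limma 3.58.1 in R 4.3.3 fitted 1 mean per group to all 12 arrays (lmFit, contrasts.fit, eBayes, with 8 residual and 4.45 prior degrees of freedom), without a filter on brightness, and p-values were adjusted by Benjamini-Hochberg over the probe sets with 1 symbol. Every adjusted p of a gene comes from limma, a call is an adjusted p under 0.05, SE is the model's standard error, and n is 3 arrays per group. The number of arrays limits the precision, with a median SE of 0.14. The script was tested on simulated data. Marker averages were compared by an exact two-sided permutation test (scipy 1.17.1), and promoter windows were searched for exact letters.

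The comparison, its members and the gene lists were chosen with earlier results of these data known. Lists are therefore described by counts and medians beside all genes. Named genes are the 15 largest rises and falls among calls whose groups did not overlap, marked and most changed list members, the 8 largest interactions each way, and genes with a motif. Listed genes without a probe set of 1 symbol, and proteins, were not analysed here. Wildtype replicate 3 at room temperature has a source name with 4 °C, against its title and temperature field, and stayed in the room temperature group. Alternatives were that array left out or moved, the 6 arrays at 4 °C alone, each of these left out, a replicate block, all probe sets, brighter ones, other normalizations, a variance trend, array weights, and the muscle marker level as a covariate.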

Additional observations from a re-analysis of the deposited data

Results flagged for a closer look

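For 29 named genes the genotype difference at 4 °C differed from that at room temperature by the interaction test in limma (adjusted p under 0.05). The interaction was negative, meaning a lower difference at 4 °C, for Plk3 (-3.06), Atf3 (-2.36), Ttpa (-2.25), Mavs (-1.76), Ppara (-1.64), Sh2b2 (-1.49), Angptl8 (-1.36), Fgd4 (-1.31), Atf5 (-1.16) and Gpam (-1.11). Atf5 rose at both temperatures, by 0.47 at 4 °C and 1.63 at room temperature, so its negative sign is a smaller rise. It was positive among ER genes for Pdia3 (0.82), P4hb (0.87), Os9 (0.92), Dnajb11 (1.42), Herpud1 (1.51), Creb3l2 (1.53), Dnajc3 (1.56), Syvn1 (1.71), Ero1b (1.78), Creld2 (2.05) and Fkbp11 (2.25). It was also positive for Gclc (1.13), Plscr2 (2.26), Stambpl1 (2.27), Il23a (2.29), Krt23 (2.34), Rbm15b (2.57), Npas2 (3.00) and Prdm15 (3.11). Of these 29, the calls of Plk3, Mavs, Atf5, Creb3l2, Fkbp11, Plscr2, Stambpl1, Il23a, Krt23, Npas2 and Prdm15 held without each of the 6 arrays at 4 °C. With the room temperature array of conflicting labels among the 4 °C wildtype arrays, Plk3 (adjusted p = 0.781), Atf5 (0.721) and Creb3l2 (0.0613) lost the call. In that setting the call held for Mavs, Ppara, Dnajb11, Fkbp11, Plscr2, Stambpl1, Il23a, Krt23, Npas2 and Prdm15. It was lost for all the rest of the 29, most of the ER genes among them, such as P4hb (0.235), Dnajc3 (0.167) and Creld2 (0.12).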

How the results depend on the processing

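Of 408 named genes 247 were called, and 166 of these calls held in all 17 alternatives. The most calls, 60, were lost without wildtype replicate 1, and 38 were lost with the array of the conflicting label among the 4 °C wildtype arrays. In that setting Nr4a3 lost its call, with its difference at 0.10 instead of -0.68 (adjusted p = 0.968). As titled, the wildtype groups averaged 8.77 at 4 °C and 5.48 at room temperature for Nr4a3, and 7.10 and 3.37 for Atf3. A room temperature array moved to the 4 °C group would thus shift such genes. Which of its labels is right, and the cause of the lost calls, were not tested. Left-out arrays gave 842 to 1345 probe sets called at 4 °C (1365 with all), 602 to 850 higher, 230 to 495 lower and 400 to 503 by at least 2-fold. The interaction count of 72 was 21 to 123 without single arrays, 22 over all probe sets, 17 with the conflicting array moved, 38 without it and 45 with the muscle covariate. At room temperature 404 probe sets were called, 177 with that array moved and 186 with the muscle covariate. Same-numbered arrays of both genotypes at 4 °C did not deviate together (correlations of 0.10, -0.16 and 0.16). With 3 arrays per group this cannot exclude that the numbers pair mice. With the replicate block 1232 probe sets were called at 4 °C and 47 in the interaction. The 6 arrays at 4 °C alone gave 1066. Readings near array medians may limit the fold changes of genes such as Fkbp11, Npas2 and Il23a, which was not tested.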
